A study of Neurospora crassa with 84 samples.

Results

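A set of 83 of 10590 counted genes of the fungus Neurospora crassa had, in the wild type, low counts before fertilization and their highest counts 1 day after it. They were chosen on the wild-type libraries alone, from CPM (counts scaled to a library total of 1000000). For each day, the mean CPM of the 6 wild-type libraries, 3 from darkness and 3 from light, was taken. A gene was kept if its mean over days 1, 2, 4 and 6 plus 0.5 CPM was at least 4 times its mean over days -2, -1 and 0 plus 0.5 CPM, if its highest daily mean was at least 10 CPM, and if that highest mean fell on day 1. The same fold and level with the highest mean on day 2, 4 or 6 was met by 96, 131 and 356 genes.

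Tissue came from cultures on nitrogen-poor SCM agar at 22°C, scraped from the surface and frozen. The female parents were a wild type of mating type mat A (WT) and a mat A strain that lacked ve-1 (∆ve-1), each kept throughout in darkness or under constant light. Conidia of a wild type of the opposite mating type, mat a, were applied on day 0 after the sample of that day was taken, so libraries from day 1 on can hold RNA of both parents. Each of the 28 combinations of strain, light and day (-2, -1, 0, 1, 2, 4 and 6) had 3 libraries, and tissue of biological replicates had been pooled before RNA extraction, so the tests below measure the spread between these libraries.

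A female culture of N. crassa forms protoperithecia, coiled knots of hyphae that send out receptive hyphae called trichogynes. Trichogynes grow toward a male cell of the opposite mating type along a gradient of its peptide pheromone, which is sensed by a G-protein-coupled receptor and relayed by a MAP kinase cascade. After fusion the nuclei of both mating types multiply side by side in ascogenous hyphae, while the surrounding maternal tissue grows into the perithecium, the fruiting body in which ascospores mature. VE-1 belongs to the velvet proteins, fungal regulators that tie development to light.

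Library totals lay between 14.5 and 18.4 M counts (M, 1e6). The deleted gene, ve-1 (NCU01731), averaged 580 ± 42.8 CPM on day 1 in the wild type in darkness and 402 ± 55.1 CPM in light, against 11.8 ± 4.28 and 10.6 ± 2.64 CPM in ∆ve-1 (SD, n = 3 each). Of 6 genes that mark conidia and aerial hyphae (eas, con-6, con-8, con-10, con-13 and fl), none was at 0 in any group. Their summed level on day 1 was 1605 to 4645 CPM in the wild type in darkness, 11186 to 23880 CPM in the wild type in light, 21041 to 22101 CPM in ∆ve-1 in darkness and 70707 to 84544 CPM in ∆ve-1 in light, so the tissues differed in these markers as well as in the genes described here. Before fertilization the same sum was 50661 to 98375 CPM in ∆ve-1 in light and 36586 to 76213 CPM in the wild type in light. In darkness it was 9410 to 72278 CPM in ∆ve-1 and 1221 to 25786 CPM in the wild type. The part of these asexual structures in the results was not tested.

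The rule set the wild-type pattern, which is given here as a description. Over the 83 genes the ratio of the mean after to the mean before fertilization ran from 4.02 to 244, with a median of 9.87, and the day 1 mean from 10.8 to 1657 CPM, with a median of 44.6 CPM. On day 1, 23 genes were over 100 CPM and 31 under 30 CPM. By day 2 the median gene was at 0.419 of its day 1 mean and by day 6 at 0.215. Just inside the limit of 4 were NCU05379 (ratio 4.06), NCU10416 (4.05) and NCU07916 (4.02), and just outside it were NCU08098 (3.95), NCU17048 (3.92) and NCU06121 (3.80). The gene models were short, with a median length of 1343 bases against 2026 bases for all counted genes.

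RefSeq gives a symbol to 6 of them, and names in the study's gene tables cover 7 more. Of the 58 with a product description, 46 were listed only as hypothetical proteins.

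In ∆ve-1 in darkness the whole set rose at fertilization, measured against the mean of days -2, -1 and 0. All 83 genes rose from the mean of days -2, -1 and 0 to day 1 by edgeR's quasi-likelihood test (adjusted p under 0.05 and log2 change above 1), with a median log2 change of 4.44, where 11.1% of all 9701 tested genes rose. The median level over the members went from 3.16 to 48.2 CPM, and in 81 of the 83 genes all 3 day 1 libraries lay above all 9 earlier ones, as in 10.7% of all tested genes. The smallest change among the members was that of NCU04901, with a log2 change of 1.38. These libraries had no part in the choice of the genes. Day 1 was again the day of the highest group mean for 73 of the 83 genes, and for 16.2% of all genes. With day 0 alone as the baseline, fmf-1 did not pass in darkness. In the day 0 library numbered 3, NCU09780 and NCU00201 had 935 and 1148 counts, against 578 and 774 in day 1 library 2.

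Levels in ∆ve-1 in darkness then came down in many of the genes. From day 1 to the mean of days 2, 4 and 6, 40 members fell, where 2.87% of all tested genes fell. With libraries left out, 28 to 38 members were called. The median level over the members was 23.3 CPM on day 2, 21.1 CPM on day 4 and 16.4 CPM on day 6.

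In ∆ve-1 in light, 43 of the 83 genes rose at fertilization and 40 did not pass the test. The share of all tested genes that rose there was 4.16%. The median level over the members went from 1.93 to 7.74 CPM, against 1.19 to 64.4 CPM for the wild type under the same light, and the median log2 change was 1.74. Of the 4 conditions on day 1, this was the one with the highest sum of the conidial markers given above. The mat A genes matA-1, matA-2, matA-3 and ccg-4 summed to 72572.5 to 74803 CPM there on day 1. Their sum was 51954 to 84310 CPM in the wild type in light and 3448 to 4636 CPM in the wild type in darkness. In ∆ve-1 in darkness it was 30135 to 79974 CPM. The part of tissue make-up in the step was not tested. In bulk tissue, fewer cells of a type and less RNA per cell cannot be told apart. In 35 of the 83 genes the 3 day 1 libraries lay above all 9 earlier ones, as in 5.82% of all tested genes. With day 0 alone as the baseline, an alternative chosen after seeing the data, 23 members rose, and without the libraries numbered 2 in every group 28 did.

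The step was smaller in light than in darkness for 45 members by the test of the difference, where 4.08% of all tested genes were lower in light by that test. With day 0 as the baseline the count was 28. Of the 38 genes not called, 8 had a group without counts that left the difference with no usable standard error. On day 1 itself, 59 of the 83 genes were lower in light than in darkness in ∆ve-1, where 10.8% of all tested genes were, and 1, NCU05047, was higher (log2 difference 1.36), where 3.82% of all tested genes were. The highest group mean in ∆ve-1 in light fell on day 1 for 30 of the genes, and for 10.3% of all genes. The gene that rose further, by the test of days 2, 4 and 6 against day 1, was the pheromone gene mfa-1, where 0.371% of all tested genes rose. Without the libraries numbered 2 that call was lost.

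**Figure D1:**
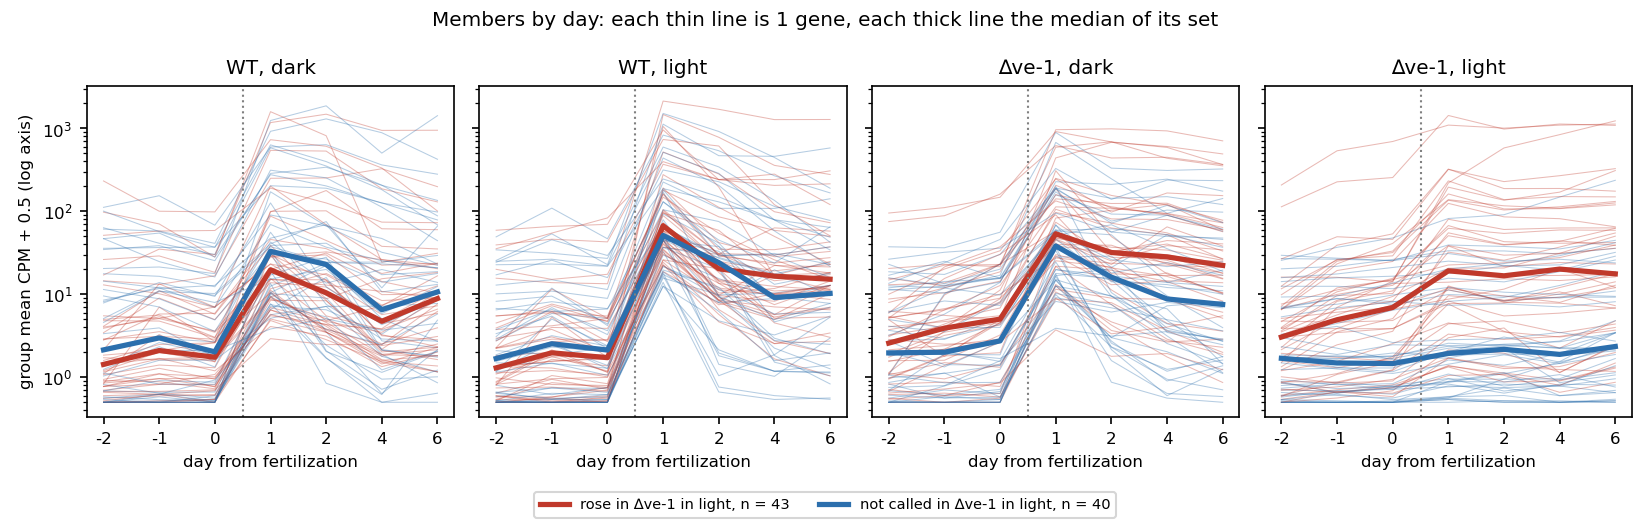
Group mean CPM plus 0.5 (log axis) of the 83 genes by day from fertilization in the 4 conditions; thin lines are genes, thick lines the medians of the 43 genes that rose in ∆ve-1 in light (red) and of the 40 that did not pass the test there (blue). Both medians step up on day 1 in 3 panels, and in ∆ve-1 in light the blue one stays low while the red one is already higher on day 0 than on day -2.

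The 43 and the 40 genes were divided by this test, so their levels in ∆ve-1 in light are a description. The median of the 43 went from 4.34 CPM before fertilization to 18.7 CPM on day 1, and that of the 40 from 1.08 to 1.44 CPM. Set against the wild type in light on day 1, the median gene of the 43 was at 27.5% and that of the 40 at 2.15%, with 32 of the 40 under 5%. In darkness, the median gene of the 43 was at 237% of the wild type and that of the 40 at 121%. The strain ratio on day 1 carries the wild-type libraries that chose the genes and is given here as a description.

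Within the 43, 14 genes stood above the wild type in light on day 1, at 112% to 276% of its level. They were gpr-31, fmf-1, NCU06930, NCU00653, NCU00763, NCU02077, NCU02682, NCU04394, NCU04934, NCU05047, NCU05722, NCU05880, NCU07759 and NCU07924. These are ratios of group means. By the fitted test of the strains on day 1 in light, 2 of the 83 genes were higher in ∆ve-1, gpr-31 and NCU05047. Of all 9701 tested genes, 1388 were higher there. In darkness the same 14 genes stood at 482% to 1367% of the wild type.

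**Figure D2:**
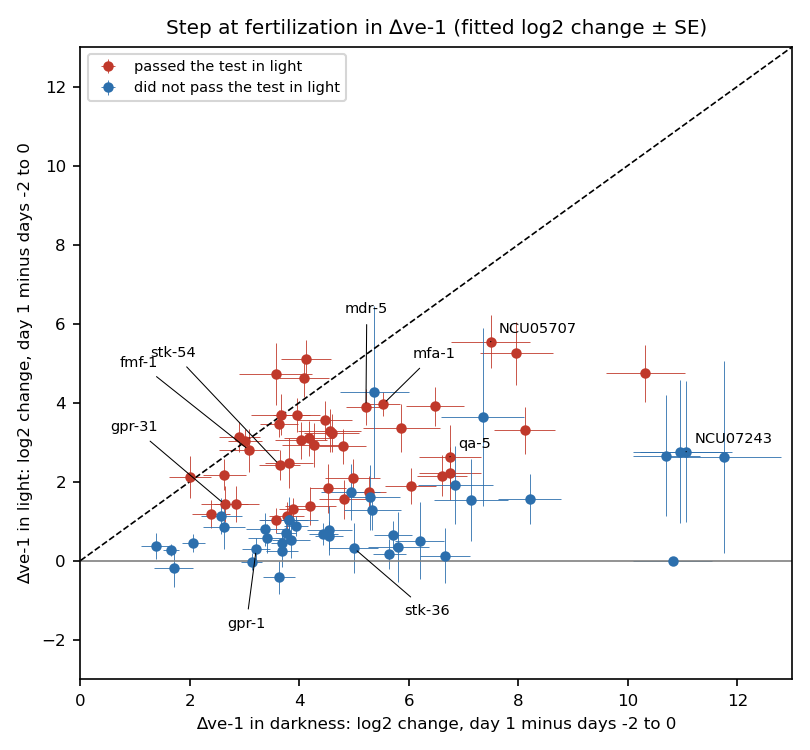
Fitted log2 change from days -2, -1 and 0 to day 1 in ∆ve-1 in light (vertical) against darkness (horizontal), with SE, for the 83 genes; the dashed line marks equal change and the colours show whether the test in light was passed. All points lie right of 0, most lie under the dashed line, and a row of blue points runs along 0 in light.

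Light and darkness also differed on day 1 of the wild type. By the same test 33 of the 83 were higher in light than in darkness, where 6.74% of all tested genes were, and the step itself was larger in light for 35, where 7.79% of all tested genes were. The rule averaged the 2 conditions in CPM, so a gene high in light alone could pass it, and nothing is read from these counts. Day 1 held the highest group mean for all 83 genes in light and for 54 in darkness, and the rule on the light libraries alone would have kept 154 genes, 82 of them members, against 25 genes from darkness alone, 23 of them members. The counts also leaned on the libraries numbered 2, without which 17 genes were higher in light and 19 had the larger step, and without the libraries numbered 1 the second count was 22. For some members, among them NCU02868 and NCU08548, a wild-type group without counts left the difference of the steps with no usable standard error.

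**Figure D3:**
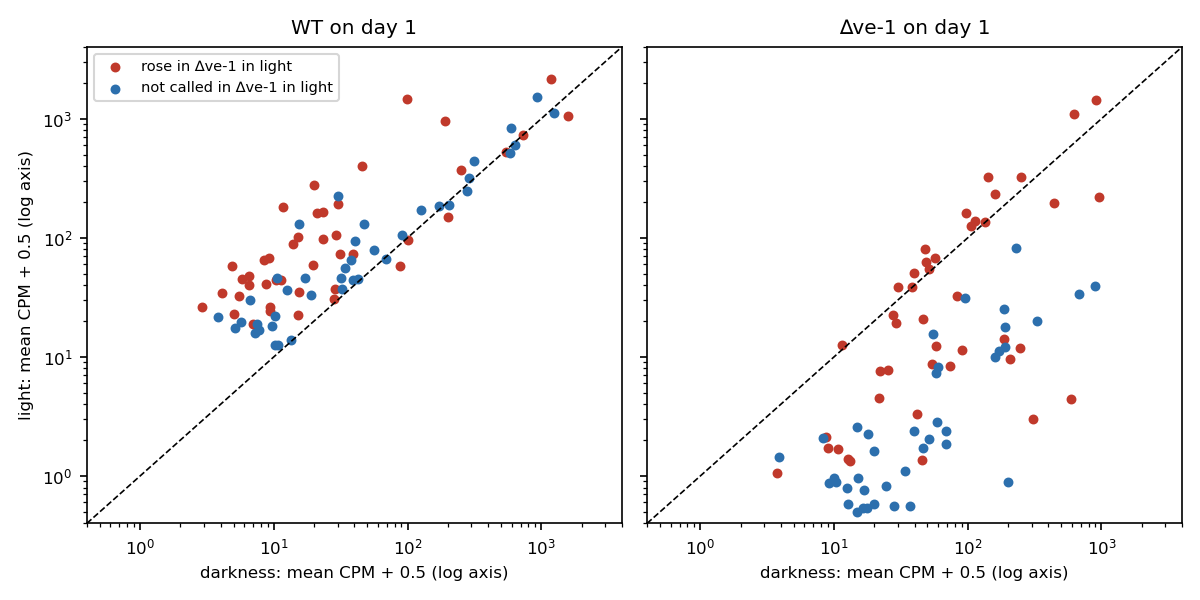
Mean CPM plus 0.5 on day 1 in light (vertical) against darkness (horizontal), both log axes, for the wild type and ∆ve-1; each point is 1 of the 83 genes and the dashed line marks equal levels. Most wild-type points lie near or above the line, and most ∆ve-1 points lie below it.

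The pheromone gene mfa-1 (NCU16992, chromosome V, 3396270 to 3397430, assembly NC12) encodes the lipopeptide pheromone of mat a cells. All 18 wild-type libraries before fertilization lay between 9.87 and 37.6 CPM. On day 1 the 3 libraries read 1481, 888 and 1160 CPM in darkness and 1609, 1828 and 2980 CPM in light. In ∆ve-1 they read 825, 709 and 1361 CPM in darkness, and 156, 120 and 382 CPM in light, after 10.5 to 26.4 CPM before fertilization. No day 1 library overlapped the earlier ones in either strain, and those of ∆ve-1 in light formed the lowest group. The gene rose in ∆ve-1 by 5.53 ± 0.31 on the log2 scale in darkness (adjusted p = 3.89e-23) and by 3.96 ± 0.30 in light (adjusted p = 5.39e-16, both by edgeR's quasi-likelihood test, ± SE). The difference of these steps was -1.57 ± 0.47 (adjusted p = 0.0185 by the same test), a call that was lost with day 0 as the baseline (-1.42) and without library 3 of day 1 in darkness (-1.21) or library 1 or 2 of day 1 in light (-1.39 and -1.26). In light the group means went on to 582 and 842 CPM on days 2 and 4. On day 6 the ∆ve-1 libraries in light read 515, 507 and 2682 CPM, so 1 library carried their mean of 1234 CPM, and the other 2 lay under the 943 to 1570 CPM of the wild type in light. Since the fertilizing conidia were mat a, the parent that gave these counts cannot be told apart here. The pheromone receptor gene pre-2 was set beside mfa-1 as a marker of the mat a partner and did not pass the test of the step. Its log2 change in ∆ve-1 was -0.50 ± 0.21 in darkness and -0.20 ± 0.21 in light. It was already counted in these mat A cultures before fertilization, so its step does not show which parent gave the mfa-1 counts.

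The gene fmf-1 (NCU09387) encodes an HMG-box transcription factor needed for fertility of both parents in N. crassa. Its wild-type day 1 libraries read 15.0, 28.8 and 24.4 CPM in darkness and 96.6, 93.9 and 100.2 CPM in light. In ∆ve-1 they read 150, 87.8 and 163 CPM in darkness and 124, 135 and 148 CPM in light, so all 6 lay above the wild type in darkness. Before fertilization the ∆ve-1 libraries were spread widely, from 1.03 to 78.2 CPM in darkness and from 2.84 to 56.7 CPM in light. The rise in ∆ve-1 was 3.08 ± 0.55 in darkness (adjusted p = 7.77e-06) and 2.79 ± 0.55 in light (adjusted p = 0.000131, edgeR's quasi-likelihood test), and with day 0 as the baseline, where the values were 1.89 and 2.23, neither passed.

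The members include the receptor genes gpr-1 and gpr-31. The gene gpr-1 (NCU00786) encodes a G-protein-coupled receptor that acts in the development of the perithecium. On day 1 it read 300.2, 216 and 342 CPM in the wild type in darkness, 351, 266 and 330 CPM in the wild type in light and 204, 185 and 183 CPM in ∆ve-1 in darkness. In ∆ve-1 in light it read 16.9, 19.2 and 16.0 CPM, inside or at the edge of the 10.5 to 19.0 CPM seen there before fertilization. The log2 change in ∆ve-1 was 3.21 ± 0.25 in darkness (adjusted p = 1.18e-16) and 0.29 ± 0.28 in light (adjusted p = 0.534), and the difference of -2.92 ± 0.41 passed (adjusted p = 2.09e-07, edgeR's quasi-likelihood test).

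For gpr-31 (NCU08429), named as a G-protein-coupled receptor gene, ∆ve-1 was instead above the wild type in both conditions. Its day 1 libraries read 48.1, 51.2 and 37.0 CPM in the wild type in darkness, 351, 436 and 407 CPM in the wild type in light, 601, 452 and 810 CPM in ∆ve-1 in darkness, and 973, 1161 and 1157 CPM in ∆ve-1 in light. The 4 groups did not overlap. In ∆ve-1 in light the gene was already at 20.3 to 1120 CPM in the 9 libraries before fertilization, with a median of 477 CPM. It rose by 2.63 ± 0.44 in darkness (adjusted p = 1.77e-06) and by 1.43 ± 0.45 in light (adjusted p = 0.0202, edgeR's quasi-likelihood test). The call in light was lost without either of the day 1 libraries 2 and 3 and with day 0 as the baseline, where the log2 change was 0.76.

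Of the kinase genes stk-36 (NCU05658) and stk-54 (NCU09189), which encode predicted serine/threonine kinases, the latter rose in both conditions. The day 1 libraries of stk-36 read 7.72, 6.74 and 11.4 CPM in ∆ve-1 in darkness and 0.310, 0.187 and 0.600 CPM in ∆ve-1 in light, against 18.8, 14.2 and 12.8 CPM in the wild type in light. Its log2 change in ∆ve-1 was 5.00 ± 0.45 in darkness (adjusted p = 2.12e-14) and 0.31 ± 0.64 in light (adjusted p = 0.796). Those of stk-54 lay from 21.2 to 34.4 CPM in ∆ve-1 in darkness and read 18.2, 17.3 and 20.6 CPM in ∆ve-1 in light and 39.5, 32.2 and 32.4 CPM in the wild type in light. It rose by 3.64 ± 0.37 in darkness (adjusted p = 1.76e-12) and by 2.42 ± 0.37 in light (adjusted p = 1.06e-06).

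The gene qa-5 (NCU05730), whose name places it with the quinate utilization genes, read 1512, 1752 and 1513 CPM on day 1 in the wild type in darkness and 1318, 797 and 1058 CPM in light, but 217, 333 and 377 CPM in ∆ve-1 in darkness and 1.12, 5.67 and 0.720 CPM in ∆ve-1 in light. Groups of the wild type and the mutant did not overlap, and ∆ve-1 in light stood at 0.236% of its wild-type counterpart. The gene rose by 6.75 ± 0.56 in ∆ve-1 in darkness (adjusted p = 1.2e-15) and by 2.63 ± 0.81 in light (adjusted p = 0.0179), where 1 library carried most of the rise: without day 1 library 2 the log2 change was 1.24 and the call was lost. In ∆ve-1 in darkness it fell by 3.82 on the log2 scale over the following days (adjusted p = 3.53e-08, edgeR's quasi-likelihood test), from 309 CPM on day 1 to 49.1 CPM on day 2.

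The catechol dioxygenase gene cdo-1 (NCU00055), whose enzyme type opens aromatic rings, read 68.95, 71.8 and 79.8 CPM on day 1 in ∆ve-1 in darkness and 7.25, 9.46 and 6.72 CPM in light. Its rise in ∆ve-1 was 3.88 ± 0.26 in darkness and 1.30 ± 0.30 in light (adjusted p = 0.00107). The phenol monooxygenase gene pmo-4 (NCU07916) read 200.1, 149 and 208 CPM in darkness and 23.7, 26.3 and 23.9 CPM in light. It rose by 3.40 ± 0.34 in darkness (adjusted p = 6.07e-13), and its change in light was 0.57 ± 0.37 (adjusted p = 0.306). The laccase gene lacc-8 (NCU07920), for a copper oxidase of phenols, read 285, 299 and 403 CPM in darkness and 18.2, 24.3 and 16.6 CPM in light, with a rise of 3.80 ± 0.53 in darkness (adjusted p = 3.19e-08) and a change of 1.02 ± 0.58 in light (adjusted p = 0.232). In light, then, cdo-1 rose while pmo-4 and lacc-8 did not pass, and all 3 were well under their levels in darkness. The changes of the 3 genes were not tested against each other.

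A gene of nicotinic acid metabolism by its name, nic-9 (NCU09855), rose by a similar amount in both conditions, 1.99 ± 0.38 in darkness and 2.12 ± 0.53 in light (adjusted p = 2.68e-05 and 0.00277), although its level in light on day 1 was 1.21 ± 0.414 CPM against 8.51 ± 2.35 CPM in darkness (SD, n = 3). The cupin-domain gene NCU05630 read 609, 525 and 642 CPM on day 1 in ∆ve-1 in darkness, above the 153 to 421 CPM of the 6 wild-type libraries, and 2.79, 5.04 and 3.90 CPM in light. It rose in both, by 5.27 ± 0.30 and by 1.74 ± 0.39 (adjusted p = 2.23e-22 and 0.000977).

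The transporter gene mdr-5 (NCU02023), named for multidrug resistance, read 206, 227 and 185 CPM on day 1 in ∆ve-1 in darkness and 8.24, 8.40 and 10.8 CPM in light, where the wild type read 593, 435 and 532 CPM. Measured against its own earlier level, it rose by 5.22 ± 0.36 in darkness (adjusted p = 6.37e-19) and by 3.89 ± 0.45 in light (adjusted p = 1.01e-09), and the difference of the steps, -1.33 ± 0.66, did not pass (adjusted p = 0.2).

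For the cell wall, ncw-2 (NCU01752), which encodes a non-anchored wall protein, rose by 3.77 ± 0.32 in ∆ve-1 in darkness (adjusted p = 1.91e-15), with day 1 libraries of 247, 262 and 230 CPM. In light it read 8.74, 14.6 and 10.7 CPM against 3.82 to 8.98 CPM before, a log2 change of 1.12 ± 0.36 (adjusted p = 0.0222) that no longer passed without day 1 library 2 or 3. NCU10416, with a WSC domain of the kind found in yeast cell wall stress sensors, rose by 2.06 ± 0.21 in darkness (adjusted p = 2.72e-12), and its change in light was 0.44 ± 0.23 (adjusted p = 0.184).

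**Figure D4:**
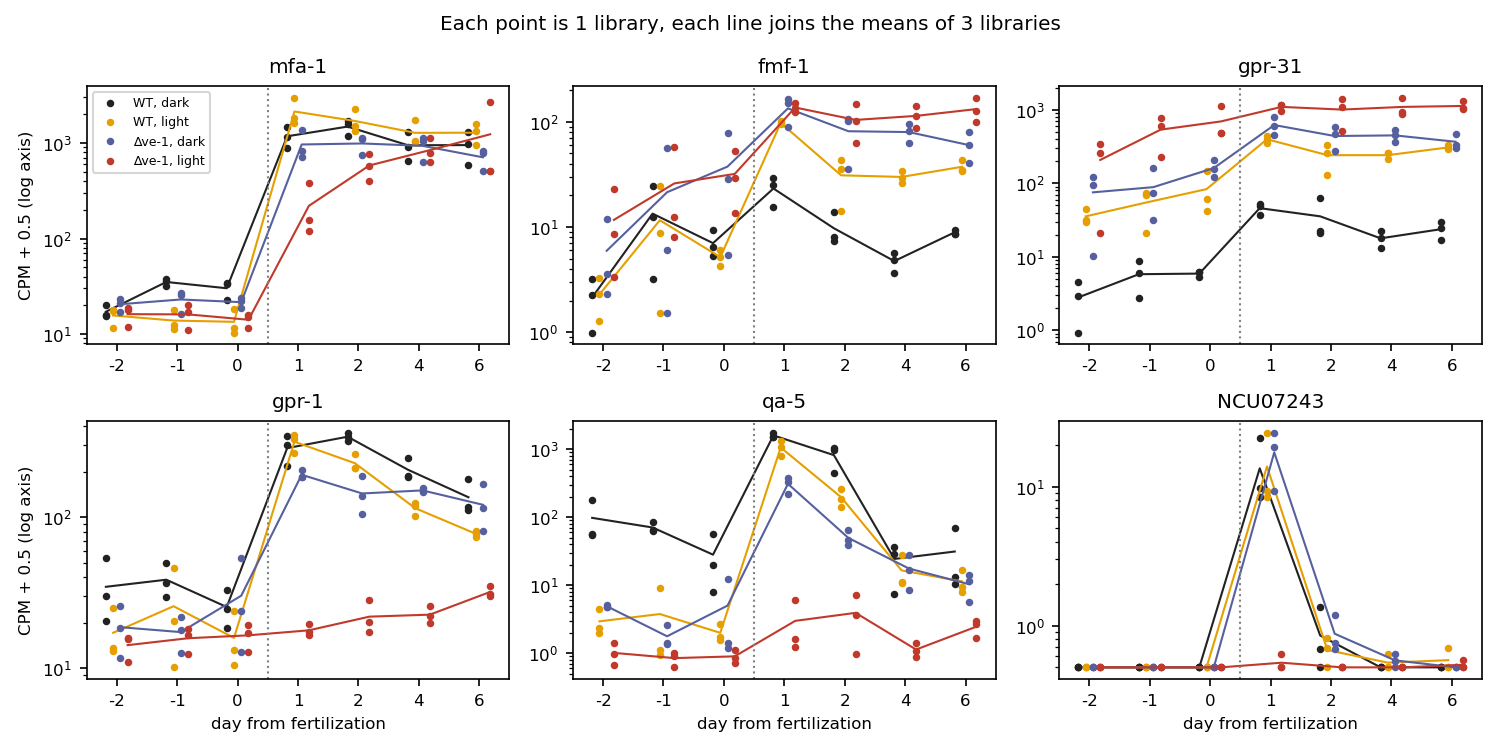
CPM plus 0.5 (log axis) by day in every library for 6 of the genes; points are libraries, lines join the means of 3 libraries and colours are the 4 conditions. The ∆ve-1 libraries in light are the lowest on day 1 for mfa-1, gpr-1, qa-5 and NCU07243, and the highest for gpr-31.

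Several members without a name had large counts or large changes. NCU05707, a hypothetical protein gene with the highest ratio by the rule, read 373, 199 and 750 CPM on day 1 in ∆ve-1 in darkness and 211, 188 and 187 CPM in light, from at most 34.4 CPM before. It rose by 7.49 ± 0.72 and 5.54 ± 0.68 (adjusted p = 2.49e-13 and 3.97e-09). The wild type read 128, 61.6 and 105 CPM in darkness and 1305, 1594 and 1514 CPM in light, so that the wild type held both the lowest and the highest group. NCU00745 instead read 1590, 665 and 1482 CPM in the wild type in darkness and 1312, 874 and 1195 CPM in light. In ∆ve-1 it read 762, 486 and 788 CPM in darkness and 34.6, 33.3 and 31.3 CPM in light, hardly above its earlier 19.2 to 31.6 CPM there. Its step was 5.70 ± 0.35 in darkness and 0.65 ± 0.36 in light, and the difference was -5.05 ± 0.57 (adjusted p = 6.08e-10).

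NCU06930, a gene of 8006 bases on chromosome VII, was the counterpart. It read 1149, 682 and 918 CPM on day 1 in ∆ve-1 in darkness and 1375, 1573 and 1351 CPM in light. Both groups lay above the 147, 221 and 202 CPM of the wild type in darkness. In light the wild type had 15960, 15932 and 16409 counts, not scaled to library totals, against 22201, 25271 and 22534 in ∆ve-1. Before fertilization the ∆ve-1 libraries in light had 1260 to 7783 counts. The fitted log2 difference of the strains in light on day 1, 0.74 ± 0.42, did not pass (adjusted p = 0.117, edgeR's quasi-likelihood test). In ∆ve-1 the gene rose by 3.01 ± 0.31 in darkness and 3.02 ± 0.31 in light (adjusted p = 2.21e-12 and 1.46e-11). NCU05494 and NCU07462 had some of the largest light differences in the wild type, with means of 11.2 ± 5.37 and 19.5 ± 11.1 CPM in darkness and 180.1 ± 19.1 and 277 ± 79.9 CPM in light (SD, n = 3 each). In ∆ve-1 the means were 82.7 ± 45.6 and 21.4 ± 8.15 CPM in darkness and 31.8 ± 4.79 and 7.17 ± 4.13 CPM in light, a difference that passed for NCU07462 (adjusted p = 0.0258) and not for NCU05494 (adjusted p = 0.121, edgeR's quasi-likelihood test).

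In 7 genes the wild-type mean on day 2 was under 0.1 of that on day 1: NCU07243, NCU01113, NCU05099, NCU07215, NCU04627, NCU03599 and NCU07208. All 7 fell after day 1 in ∆ve-1 in darkness, with a median log2 change of -5.78, while 33 of the other 76 genes fell there and had a median of -0.96 over the 76. In ∆ve-1 in darkness the 7 stood at 106% of the wild type or more on day 1, and in light at 1.29% or less. NCU07243 had 0 counts in all 36 libraries before fertilization. On day 1 its libraries read 7.90, 22.0 and 9.21 CPM in the wild type in darkness, 23.6, 7.95 and 8.74 CPM in light, and 18.6, 8.75 and 23.9 CPM in ∆ve-1 in darkness, at least 847-fold above the floor of 3 counts over the 9 earlier libraries of that condition. In ∆ve-1 in light it had 2 counts in all 3 libraries together. It fell by 8.11 on the log2 scale after day 1 in ∆ve-1 in darkness (adjusted p = 1.41e-09, edgeR's quasi-likelihood test), and DESeq2 gave an adjusted p of 0.138 for that fall. NCU07208 had 733 counts on day 1 in ∆ve-1 in darkness and 0 in light, and NCU07215 had 815 and 2.

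Some of these genes lay near each other. NCU07243, NCU07215 and NCU07208 are on chromosome V, the first at 6120566 to 6121372 and the others between 6223717 and 6238634, and NCU07204, also a member, ends at 6251866. The genes lacc-8 and pmo-4 lie with NCU07924 between 1333154 and 1367002 on chromosome IV. NCU09634 and NCU09633 are next to each other near the start of chromosome II, from 8927 to 12594. The models of NCU12022 and NCU12021 overlap on chromosome VII (1568960 to 1571561), so reads in the shared stretch may not be independent between them. NCU12021 read 175, 203 and 193 CPM on day 1 in ∆ve-1 in darkness and 9.66, 14.8 and 10.4 CPM in light, and NCU12022 read 153, 177 and 186 CPM and 8.30, 14.3 and 9.77 CPM. Their steps were 3.76 ± 0.18 and 3.94 ± 0.22 in darkness, and in light 0.71 ± 0.20 and 0.88 ± 0.25, under the limit of 1 on the log2 scale. By chromosome, V and I held 15 members each, VI 13, II and IV 11 each, III 10 and VII 8. Chromosome I held 18.1% of the members and 23.4% of all genes, V 18.1% and 16.0%, and VI 15.7% and 10.1%. The same shares were 13.3% and 10.4% for II, 13.3% and 15.1% for IV, 12.0% and 12.5% for III, and 9.64% and 10.8% for VII.

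Among 12 genes of mating and pheromone signalling, of which mfa-1 and fmf-1 are members, 5 rose at fertilization in ∆ve-1 in darkness, where 11.1% of all tested genes rose, and 5 in light, where 4.16% did. Besides the 2 members these were matA-1, matA-2 and the mat A pheromone gene ccg-4 in darkness, and matA-2, matA-3 and ccg-4 in light. The list median was a log2 change of 0.16 in darkness and 0.74 in light, against -0.02 and 0.00 over all tested genes. The pheromone receptor gene pre-1 and the MAP kinase genes nrc-1, mek-2 and mak-2 did not pass in either condition. Among 7 genes of fruiting body development, none of them a member, fsd-1, per-1 and poi-2 rose in darkness (3 of 7) and asd-3 and per-1 in light (2 of 7). The list medians were 0.55 and 0.09.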

How the data were processed

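The authors sequenced strand-specific poly-A libraries, cleaned reads with fastp, mapped them with STAR to OR74A (NC12) and deposited raw fragment counts per gene from featureCounts, unfiltered and not normalized. Tissue of biological replicates was pooled before extraction. All 10590 identifiers matched RefSeq (NC12), the source of symbols and coordinates. Names and products absent there were read from the study's gene tables.

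Levels are CPM of the deposited counts. Tests used edgeR 4.0.16 (R 4.3.3): edgeR's filter (9701 genes kept), TMM scaling, 1 coefficient for each of 28 groups, quasi-likelihood F tests and Benjamini-Hochberg adjustment over all tested genes. SE is the log2 change over the square root of F. A call needed an adjusted p under 0.05 and a log2 change over 1. Simulated counts for the ∆ve-1 step in light (9687 genes) gave 197 of 200 changed genes and 1 false call. The changed genes were drawn only from genes above a set mean level and were given large changes. The simulation therefore does not show how often a rise would be found in low members. The 40 members not called in light had a median of 1.08 CPM there before fertilization. DESeq2 1.42.0, RLE scaling, no filter, a replicate block and left-out libraries were alternatives. Depth was 14.5 to 18.4 M counts (M, 1e6) a library, and the floor used for a group without counts, 3 counts over the group, covers counting error only.

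The genes and lists were chosen with earlier results of these data known. Named genes are those with a symbol or name, the highest by level, ratio or change, neighbours and those by the limit.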

Additional observations from a re-analysis of the deposited data

Results flagged for a closer look

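The step at fertilization was smaller in light than in darkness in ∆ve-1 for 45 of the 83 genes, by the test of the difference. Of all tested genes, 4.08% were lower in light by that test. The count of members was lower with day 0 as the baseline and fell to as few as 32 with libraries left out. Among the genes described singly, the log2 difference, light minus darkness, was -1.57 for mfa-1 (NCU16992), -2.92 for gpr-1 (NCU00786), -4.12 for qa-5 (NCU05730) and -5.05 for NCU00745. The call for mfa-1 was lost with day 0 as the baseline and without some single day 1 libraries.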

How the results depend on the processing

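The rule applied to wild-type libraries in darkness alone gave 25 genes, in light alone 154, and with a ratio of at least 8 it gave 51; leaving out the libraries of 1 replicate number gave 81 to 94. The step in ∆ve-1 in light counted 43 members, 23 with day 0 as the baseline and 28 to 41 with libraries left out, and its difference from darkness 45, 28 with day 0 as the baseline and 32 to 45 with libraries left out. The count of members higher in light in the wild type on day 1 was 33, and 17 to 31 with libraries left out, and that of larger steps in light was 35, and 19 to 36. For members called, in either direction, after day 1 in ∆ve-1 in light the count was 1, and 3 by DESeq2 and 0 to 3 with libraries left out. After day 1 in ∆ve-1 in darkness it was 40, and 28 to 38 with libraries left out. For the step in ∆ve-1 in darkness it was 83, and 82 to 83 with libraries left out, and fmf-1 did not pass with day 0 as the baseline. The change of stk-36 (NCU05658) in light turned to -0.24 without the third day 1 library and was 0.65 without the second. The cause of these shifts was not tested. The other counts, under DESeq2, RLE scaling, no low-count filter and no fold limit, stayed within 1.5 times. The deviations of same-numbered libraries had correlations of -0.29 to 0.45 over 48 pairs, 23 of them over 0.1, and since not every pair was over 0.1 the numbers were not taken as pairs. With the replicate block, the counts were 83 and 43 for the steps in ∆ve-1 in darkness and light, 46 for their difference, 40 for the fall in darkness and 34 for light in the wild type.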
